A study of Sus scrofa with 6 samples.

Results

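Back-splicing joins a downstream splice donor to an upstream splice acceptor and closes the RNA between them into a circle, a circular RNA (circRNA). The circRNAs described here are those spanning 1000 to 50000 bases of genome whose start was also the start of at least 1 other circRNA, and whose end was also the end of at least 1 other, on the same chromosome and strand. The rule used positions and no level. It still depends on depth, because a second circRNA at an end is known only from its reads. Of the 11375 deposited circRNAs, 1939 met the rule (17.05%). They are called members below. RNA came from the brains of 3 wild boars and of 3 domestic pigs of the Rongchang breed. The labels give all 6 animals as female and 2 years old and name no treatment or transgene. The wild boar samples were labelled brain and the domestic pig samples cerebrum, and the latter were re-analysed libraries of an earlier deposit. Breed, labelled tissue and source project therefore cannot be told apart. The titles number the wild boars and the domestic pig cerebrum samples, and each library was taken as its own animal.

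A splice acceptor is the 3′ end of an intron and a splice donor the 5′ end of the next one, and in linear splicing each donor joins an acceptor further downstream. In a back-splice the order is turned, and the 2 junction sites become the ends of the circle. Many brain genes make several circRNAs, and a site that serves more than 1 of them offers a choice of partner, called alternative back-splicing. CircRNAs have no free ends, resist exonucleases and are known to build up in neurons. The acceptor lies at the start coordinate of a circRNA on the plus strand and at its end coordinate on the minus strand, and the donor lies at the opposite coordinate.

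The deposited values were TPM, reads scaled for length and library. Once length and 1 factor per library were removed, every circRNA's TPM came out as whole back-splice reads, within a relative tolerance of 1e-06. Reads below are these recovered reads, which numbered between 33644 and 73089 per library over all circRNAs. Members gave 10256, 15817 and 9275 of the wild boar reads and 19622, 13472 and 19850 of the domestic pig reads. Where a circRNA had no read, a true count of up to 3 reads could have been missed, which is 0.00410% to 0.00892% of back-splice reads (counting error only). In the protein-coding table the neuron, oligodendrocyte and astrocyte markers were all above 0. The summed TPM of 3 red blood cell markers was 521 to 758 in the wild boars and 123 to 311 in domestic pig, and that of the liver genes ALB and APOA2 was 4.75 to 71.4 and 3.12 to 16.4.

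The members lay in 725 host genes, assigned by position. CHD2, a chromatin remodeller, held 17 members, UBR3, a ubiquitin ligase, held 16, and KDM5B, a histone demethylase, held 12. ARAP2, DCAF6, FOCAD and SNX14 held 11 each. At the other end, 355 hosts held 1 member. The members used 1290 acceptor sites and 1294 donor sites, and 1611 of these 2584 sites served exactly 2 circRNAs while the fullest served 12. Counting every circRNA that shared its start or its end, a member had a median of 3 rivals and at most 12. For 1071 members (55.2%) the layout closed into a rectangle, in which 2 acceptors and 2 donors were joined in all 4 combinations.

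Members were longer in the genome and more abundant than circRNAs of the same span range with no shared end. Their median span was 19381 bases, against 7794 bases for the 2949 circRNAs with private ends and 13633 bases for the 4485 that shared 1 end. The median spliced length was 627 nt, against 452 and 531 nt. The mean level per member lay between 0.257 and 0.448 TPM over the 6 libraries, and the mean level per private circRNA between 0.124 and 0.211 TPM. Members were higher in 6 of 6 libraries (exact sign permutation over libraries, two-sided p = 0.0312, the smallest this design can give, and the same after Benjamini-Hochberg adjustment over 4 measures). The same circRNAs were measured in all 6 libraries, so the test speaks of the spread between libraries and not of that between circRNAs. A shared end can be seen only where a second circRNA has reads, so depth at a gene enters both the rule and the level. The test therefore cannot tell shared ends from depth, and the higher level of members is a description. Reads were found in all 6 libraries for 50.2% of members and 25.5% of private circRNAs. Spliced lengths divisible by 3 were about as frequent among members (37.8%) as among private circRNAs (38.01%).

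At the limits of the span rule stood circRNAs of very different abundance. Just inside the lower limit were ssc_circ_2496 of CANX, of 1026 bases, with 0, 3 and 0 reads in the wild boars and 1, 0 and 2 in domestic pig, and ssc_circ_558 of USP24, of 1077 bases, with 9, 21 and 11 reads and 17, 1 and 9 reads. Just outside it were ssc_circ_4087 of KLHL24 (981 bases) and ssc_circ_4787 of LRP1B (955 bases), the latter with 4, 9 and 4 reads and 14, 14 and 17 reads. At the upper limit ssc_circ_4299 of USP25 (49962 bases) and ssc_circ_7421 of USP34 (49697 bases) were inside, and ssc_circ_1683 of KIAA2026 (50048 bases) and ssc_circ_9549 of CHD2 (50087 bases) outside. None of these 4 members inside the limits had 10 reads with its rivals in every library, the depth asked for next.

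Dominance was described through the local share, the reads of a circRNA as a percentage of its own reads plus those of all its rivals. A member was called dominant in a library when it had more reads than every rival. Both were assessed for the 834 members with at least 10 local reads in every library, and the remaining 1105 members were too shallow. The median of the mean local share was 18.1%, with quartiles of 8.02% and 39.3%. A share over 50% was held by 146 members, a share over 90% by 10, and a share under 10% by 252.

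For most members dominance was the same in every library, mainly because most led in none. Of the 834 members, 140 (16.8%) were dominant in all 6 libraries and 471 (56.5%) in none. The other 223 (26.7%) were dominant in some, 69 of them in 1 library and 48 in 5. Among members that led at all, those that led in only some libraries thus outnumbered those that led in all 6. The 140 constant leaders came from 136 host genes, so nearly every one was the sole constant leader of its gene. Their median level was 1.07 TPM, against 0.117 TPM for the members that never led, and their median span was shorter, 17462 against 22478 bases. Level and dominance both come from the same reads, so these medians are a description. In number of rivals the classes had the same median, 4.

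Seen from the splice sites, 1 circRNA usually took most of the reads. There were 558 sites with a member and at least 10 reads in every library, and the leading circRNA took a median of 72.2% of the site's reads. At the 200 sites with 2 circRNAs this median was 88.6%, and at the 358 sites with 3 or more it was 61.0%. The leader was the same circRNA in all 6 libraries at 398 sites (71.3%), at 172 of the 200 sites with 2 circRNAs and at 226 of the 358 fuller ones.

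**Figure D1:**
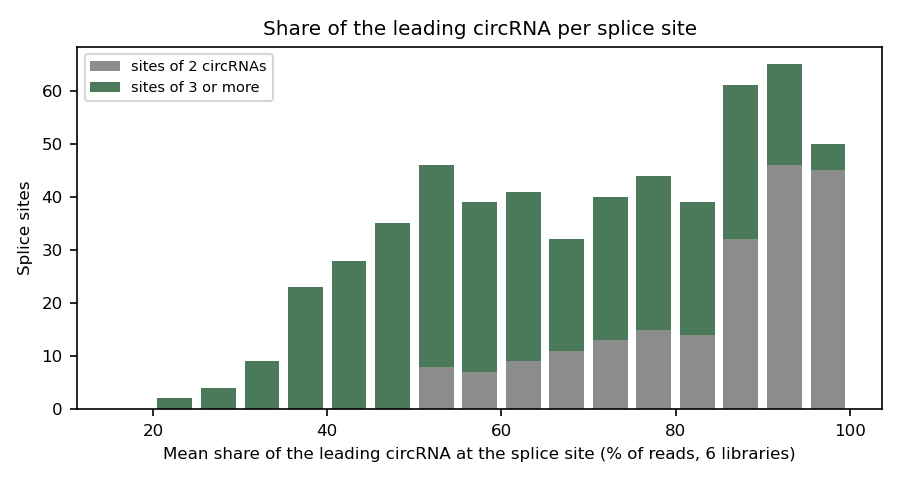
Number of splice sites (vertical axis) by the mean share of the leading circRNA in percent of the site's reads over 6 libraries (horizontal axis, bins of 5 percentage points), for the 558 sites with at least 10 reads in every library. Sites of 2 circRNAs (grey) crowd towards 100%, with 45 in the last bin, and sites of 3 or more (green) spread down to 20%.

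The 2 kinds of site differed in which circle led. At the 273 donor sites the leader was the longest circRNA of the site at 42.1% to 45.4% of sites per library, and at the 285 acceptor sites at 20.4% to 23.9%. The difference averaged 21.8 percentage points and had the same direction in 6 of 6 libraries (exact sign permutation over libraries, two-sided p = 0.0312, the smallest possible). Sites of exactly 2 circRNAs were 115 of the donor sites and 85 of the acceptor sites. At these the range was 61.7% to 67.8% and 42.4% to 48.2%, a difference of 18.8 points in 6 of 6 libraries (same exact sign permutation, p = 0.0312). This comparison was chosen after the values were seen. The sites are shared by all 6 libraries, so the test speaks of the spread between libraries and not of that between sites.

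The most abundant member was ssc_circ_891 of RIMS1, a scaffold protein of the presynaptic active zone, on the plus strand of chromosome 1 from 52146557 to 52179177 (the genome build was not given in the sources used here). It had 484, 620 and 451 reads in the wild boars and 719, 390 and 750 in the domestic pigs, at a mean of 25.3 TPM. Its local share stayed between 79.6% and 83.4% in all 6 libraries. Of its 6 rivals, 5 used its donor and started elsewhere. The strongest of them, the member ssc_circ_888, had 51, 100 and 57 reads in the wild boars and 105, 62 and 88 in domestic pig. Its own local share was 8.67% to 12.6%. In reads and in local share the groups overlapped for both circRNAs. In TPM they overlapped for ssc_circ_891 alone. The level of ssc_circ_888 was 2.02 to 2.76 TPM in the wild boars and 2.85 to 3.30 TPM in domestic pig (limma, adjusted p = 0.542). Wild boar lay below without overlap for 18.2% of all circRNAs tested for level.

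PHF21A, a subunit of a histone demethylase complex, gave the second most abundant member, ssc_circ_2363. It had 319, 399 and 204 reads in the wild boars and 545, 383 and 457 in domestic pig. It took 95.2% to 96.2% of its local reads in the wild boars and 96.8% to 98.97% in domestic pig, although 5 rivals shared its ends. The breeds' shares did not overlap, but the change missed the threshold (limma, adjusted p = 0.480). Its closest rival had 29 reads in all.

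RERE, a transcriptional corepressor, gave ssc_circ_175, which had 96, 631 and 97 reads in wild boars 1 to 3 and 127, 128 and 230 in domestic pig. Wild boar 2 stood apart with more than all other wild boar reads of this circRNA together. In that library the local share was also highest, 85.4%, against 68.6% and 79.5% in the other wild boars and 63.5% to 73.6% in the domestic pigs. It was also the deepest wild boar library, with 59343 back-splice reads. Among the wild boars some rivals had most reads there too. The rival ssc_circ_174, which shares the acceptor, had 10, 39 and 3 reads in the wild boars and 13, 7 and 23 in domestic pig. For ssc_circ_176, which shares the donor, they were 14, 40 and 7 against 36, 19 and 56, highest in domestic pig 3. Not every rival followed: ssc_circ_166 had 5, 3 and 5 reads in the wild boars.

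The other 7 of the 10 most abundant members were dominant by a wide margin too. ME1, the cytosolic malic enzyme, gave ssc_circ_1010, with a local share of 81.5% to 97.6%. KIAA2026 gave ssc_circ_1681 with 79.1% to 89.0%, and MAN1A2, a Golgi mannosidase, gave ssc_circ_8723 with 76.9% to 93.0%. ATP11B, a phospholipid flippase, gave ssc_circ_4067 with 62.1% to 79.7%. Lower shares were held by ssc_circ_6634 of SUGCT (54.7% to 72.6%), by ssc_circ_3284 of DENND1B (56.9% to 75.2%) and by ssc_circ_4231 of GRAMD1C, whose range of 54.7% to 80.3% had its top in domestic pig 1. In every library all 10 members took over 50% of their local reads. Besides PHF21A, the breeds' shares did not overlap for KIAA2026 and GRAMD1C. They were 87.5% to 89.0% in the wild boars and 79.1% to 83.2% in domestic pig for KIAA2026 (limma, adjusted p = 0.716). For GRAMD1C they were 54.7% to 58.6% and 60.9% to 80.3% (limma, adjusted p = 0.419). Of all circRNAs tested, wild boar lay above without overlap for 5.98% and below for 6.02%.

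**Figure D2:**
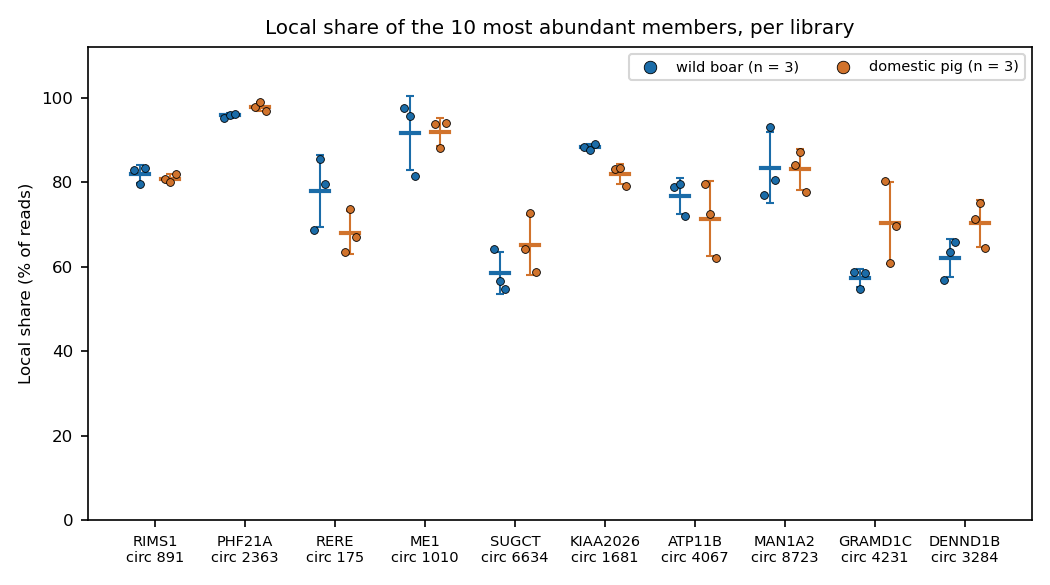
Local share in percent of reads (vertical axis) of the 10 most abundant members, named by host gene and circRNA number (horizontal axis), in 3 wild boar (blue) and 3 domestic pig libraries (orange). Points are libraries, thick bars means and thin bars SD, and every point lies above 50%.

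The most complete dominance among members with at least 20 local reads in every library was that of ssc_circ_2613 of VCAN, a chondroitin sulfate proteoglycan of the extracellular matrix. Its spliced length equalled its span of 5238 bases, the length of a circle with no intron removed. It had 21, 89 and 29 reads in the wild boars and 85, 68 and 160 in domestic pig. Its share was 98.9% to 100% in the wild boars and 91.4% to 98.6% in domestic pig. Next came PHF21A, above, and ssc_circ_3445 of YME1L1, a mitochondrial protease, at 86.5% to 98.0%.

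Some members divided their sites almost evenly. SLC8A1, the sodium-calcium exchanger, gave a pair of members that shared an acceptor and ended at different donors. The shorter, ssc_circ_7537, had 23, 43 and 16 reads in the wild boars and 62, 25 and 58 in domestic pig. The longer, ssc_circ_7538, had 8, 35 and 14 reads in the wild boars and 46, 37 and 43 in domestic pig. The shorter led in 5 libraries and the longer in domestic pig 2. APP, the amyloid precursor protein, gave ssc_circ_4317, with a share of 52.8% to 66.7% in the wild boars and of 27.6% to 72.7% in domestic pig. Its rival at the acceptor, ssc_circ_4315, overtook it only in domestic pig 2, with 18 reads against 8. These 3 were picked for a share nearest to 50% among members with 2 rivals.

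The fullest sites described here were all acceptors. That of ARAP2, a GTPase-activating protein for ARF, joined 12 donors with spans of 1050 to 134323 bases, and its leader, the member ssc_circ_6714, took 34.7% ± 8.87 of the reads in the wild boars and 36.8% ± 5.77 in domestic pig (SD, n = 3). That of MYO9A, an unconventional myosin, joined 11 donors, and its leader ssc_circ_1443 took only 21.5%. The acceptor of PICALM, a clathrin assembly protein, joined 9 donors and was the deepest of these, with 1352 reads. Its leader ssc_circ_7804 took 33.8%, 33.5% and 34% in the wild boars and 35.9%, 33.5% and 36.3% in domestic pig, and led in all 6 libraries. The second, ssc_circ_7802, took 22.3% to 29.9%. The acceptor of FOCAD, also with 9 donors, had a leader at 31.4%. Of the leaders given here only that of ARAP2 was a member, and ssc_circ_7802 was not a member either. The PICALM order of first and second was thus the same in both breeds, while at ARAP2, MYO9A and FOCAD the leader was not the same in all 6 libraries.

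Over all members, no difference between the breeds in the balance between isoforms passed a test over libraries. The chance that 2 different reads of a splice site came from the same circRNA, averaged over the 558 sites, was 0.604 ± 0.00544 in the wild boars and 0.600 ± 0.00526 in domestic pig (SD, n = 3; two-sided exact permutation over libraries, p = 0.5, adjusted over 5 library values 0.6). Dominant members numbered 240, 241 and 242 of 834 in the wild boars and 247, 240 and 243 in domestic pig (same exact test, p = 0.5). Members took 27.1% ± 0.466 of back-splice reads in the wild boars and 27.4% ± 0.244 in domestic pig (n = 3; same exact test, p = 0.3, adjusted 0.6). They took 25.1% ± 0.348 and 25.8% ± 0.141 of circRNA TPM (n = 3; same exact test, p = 0.1, adjusted 0.5). An exact test of 3 against 3 cannot go below 0.1. The mean local share of a member differed between the breeds by a median of 4.32 percentage points, and the median SD between libraries of a breed was 6.65 points. A difference of means of 3 varies less than single libraries do, so these 2 values are a description. It differed by more than 10 points for 143 members, by more than 20 for 16 and by more than 30 for 3, and was higher in wild boar for 414 and lower for 420.

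**Figure D3:**
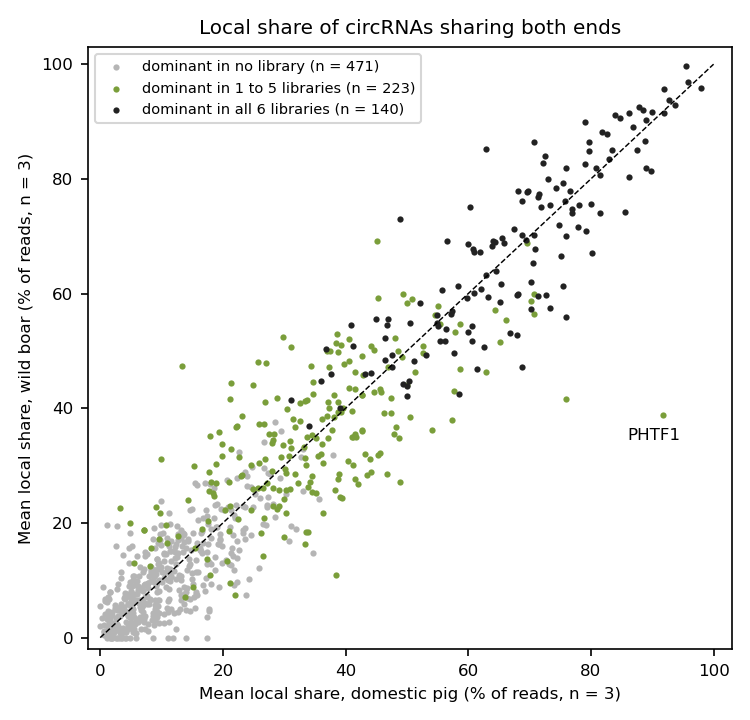
Mean local share in percent of reads in domestic pig (horizontal axis, n = 3) against wild boar (vertical axis, n = 3) for the 834 assessed members, coloured by the number of libraries in which the member was dominant. Points lie along the dashed line of equal shares, and PHTF1 is the point farthest below it.

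The change of each local share was tested with limma on the log2 ratio of a circRNA's reads to its rivals' reads, with 0.5 added to each, over all circRNAs with a shared end and enough reads. Of 2308 circRNAs tested, 1 passed at an adjusted p under 0.05 (0.0433%), and it was a member. It was lower in wild boar. Of the 810 members tested, 60 had an unadjusted p under 0.05 (7.41%, against 7.02% of all circRNAs tested), 34 of them higher in wild boar (4.07% of all were) and 26 lower (2.95% of all were). The breeds' shares did not overlap for 45 members with wild boar above (5.98% of all circRNAs tested) and for 52 with wild boar below (6.02% of all), which is 5.56% and 6.42% of the members. The members' median log2 change was 0.03, and that of all circRNAs tested 0.01. The 5th and 95th percentiles of the members' log2 changes were -1.30 and 1.39.

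PHTF1 gave the member that passed, ssc_circ_8741, on the plus strand of chromosome 4 from 106850368 to 106859846, with a spliced length of 1107 nt. It had 7, 5 and 2 reads in the wild boars and 31, 21 and 24 in domestic pig. Its local share was 58.3%, 41.7% and 16.7% in the wild boars and 93.9%, 95.5% and 85.7% in domestic pig, so the groups did not overlap. The log2 ratio to its rivals fell by 4.0 in wild boar (SE 0.85; limma, adjusted p = 0.00827). The rival that shared its acceptor and ran to a farther donor, ssc_circ_8742, had 3, 4 and 5 reads in the wild boars and 1, 0 and 2 in domestic pig. The host mRNA was at 7.75 ± 2.29 TPM in the wild boars and 10.8 ± 2.92 TPM in domestic pig (SD, n = 3).

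The PHTF1 call rests on few reads and on how the variance was set. The test pooled the variance across circRNAs of like depth almost fully, and without that trend the adjusted p was 0.409. It was 0.142 on shares of TPM, and 0.0837, 0.0885, 0.147 and 0.0673 without wild boar 1, 2, 3 or domestic pig 1 in turn (limma). With limma's diffSplice it was 0.0614, at a log2 change of -2.19. With any 1 of these 4 libraries left out 0 members passed, and with domestic pig 2 left out 3 did.

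The other members of lowest p missed the threshold, and their values are given as such. MLIP, which encodes a lamin-interacting protein of muscle, held 8 members among its 10 circRNAs, all on the minus strand of chromosome 7. The member ssc_circ_1974, from 26620967 to 26645027 and of 219 nt, had 83, 63 and 44 reads in the wild boars and 39, 46 and 17 in domestic pig. Its local share was 55.7%, 37.1% and 51.2% against 21.0%, 42.6% and 17.5%, with domestic pig 2 above wild boar 2 (log2 ratio change of 1.39, wild boar minus domestic pig, SE 0.34; limma, adjusted p = 0.0504). With 1 library left out its adjusted p ran from 0.000862 (without domestic pig 2) to 0.587 (without domestic pig 3), and without the variance trend it was 0.734. The member ssc_circ_1973 uses the same acceptor and a donor further away, and had 2, 16 and 0 reads against 9, 5 and 15 (log2 ratio change of -2.65; limma, adjusted p = 0.0990). With 1 library left out this ran from 0.0260 (without domestic pig 2) to 0.753 (without domestic pig 3), and the log2 change was -1.67 without wild boar 3.

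The MLIP circRNAs that used another acceptor, at 26664601, had more reads in the domestic pigs on average, but not in every library. The domestic pig libraries were also the deeper ones on average. Of the 3 members that joined it, ssc_circ_1976 had 52, 71 and 35 reads in the wild boars and 123, 50 and 58 in domestic pig. For ssc_circ_1978 the reads were 14, 33 and 17 against 74, 48 and 56, and for ssc_circ_1980 they were 24, 42 and 28 against 68, 33 and 59. The breeds' reads overlapped for ssc_circ_1976 and ssc_circ_1980. As a mean share of all MLIP circRNA reads, ssc_circ_1974 stood at 32.6% in the wild boars and 13.8% in domestic pig, and ssc_circ_1978 at 10.7% and 23.1%. The others at this acceptor differed less, ssc_circ_1976 at 26.3% and 28.4% and ssc_circ_1980 at 16.15% and 20.4%. By reads, which unlike TPM are not divided by length, ssc_circ_1976 of 477 nt had the highest share in domestic pig, 28.4%, and ssc_circ_1974 in wild boar. These shares of the gene are a description. Host mRNA stood at 7.30 ± 0.945 TPM in the wild boars and 10.4 ± 1.12 TPM in domestic pig (SD, n = 3).

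**Figure D4:**
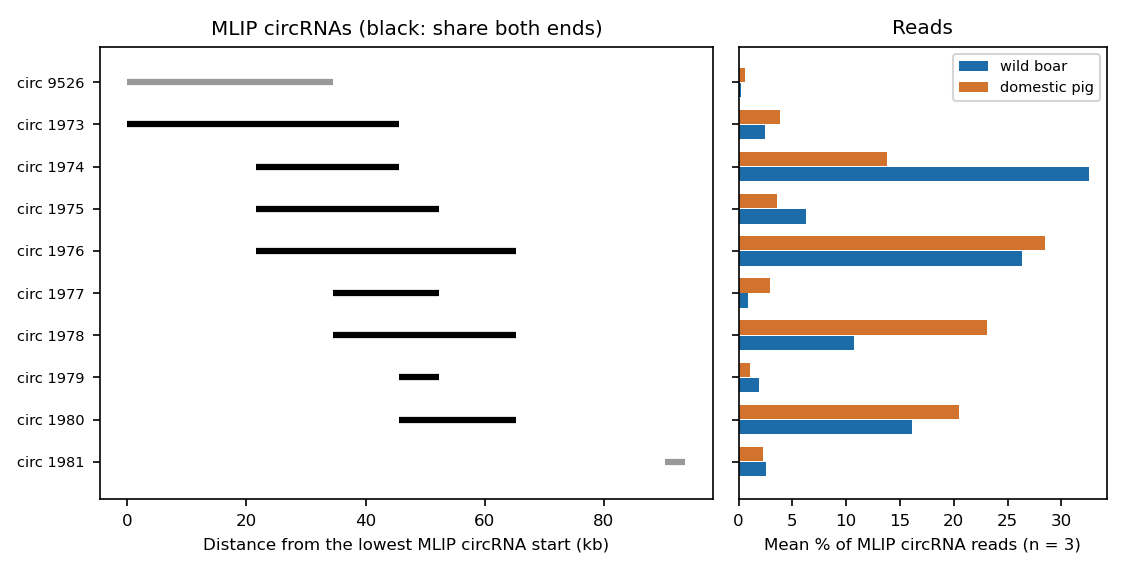
Left, the 10 MLIP circRNAs drawn as bars by distance in kb from the lowest start (horizontal axis), members in black and others in grey; the gene reads from right to left, so the right end of a bar is its acceptor. Right, the mean percentage of MLIP circRNA reads in wild boar (blue) and domestic pig (orange), n = 3 each, with ssc_circ_1974 at 32.6% and 13.8%.

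NCOR1, a nuclear receptor corepressor, held a closed rectangle of 4 members, in which 2 acceptors (59319172 and 59320434 on the plus strand of chromosome 12) were joined to 2 donors (59323398 and 59331703). The circle from the upstream acceptor to the far donor, ssc_circ_4745, had 10, 28 and 8 reads in the wild boars and 52, 26 and 57 in domestic pig. That from the downstream acceptor to the same donor, ssc_circ_4747, had 15, 21 and 12 reads and 16, 14 and 8 reads. With this donor the upstream acceptor was thus used by 40%, 57.1% and 40% of reads in the wild boars and by 76.5%, 65.0% and 87.7% in domestic pig, without overlap. With the near donor it was used by 65.4%, 71.4% and 90% and by 74.4%, 87.1% and 88.9%, and the groups overlapped. In the test of local share, the log2 ratio differed by 1.63 (SE 0.49) for ssc_circ_4747 and by -1.40 (SE 0.42) for ssc_circ_4745, wild boar minus domestic pig, both at an adjusted p of 0.189 (limma). The shares by acceptor were chosen after the values were seen and are a description.

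In MYO9A the number of reads of the member itself hardly moved and the rival did. The member ssc_circ_1435 had 15, 10 and 9 reads in the wild boars and 12, 12 and 12 in domestic pig. Its rival at the acceptor, ssc_circ_1434, had 8, 18 and 8 reads in the wild boars and 3, 0 and 0 in domestic pig. The local share of the member was 31.2% to 57.7% and 50% to 92.3%, and its log2 ratio differed by -2.28 (SE 0.69; limma, adjusted p = 0.189). The change depended on the measure. It was -3.64 by the acceptor end alone (limma, adjusted p = 0.0297) and -0.75 by the donor end alone (limma, adjusted p = 0.918). With limma's diffSplice it was -0.02 (adjusted p = 0.997).

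The remaining members of lowest p had few reads. KIFAP3, an accessory subunit of kinesin-2, gave ssc_circ_8615 with 4, 7 and 8 reads in the wild boars and 2, 0 and 1 in domestic pig, a share of 16.0% to 25.9% against 0% to 5.26% (limma, adjusted p = 0.189, and 0.0204 with diffSplice). PRMT3, an arginine methyltransferase, gave ssc_circ_2401 with 6, 13 and 9 reads against 6, 0 and 4 (limma, adjusted p = 0.234). GRAMD1C gave ssc_circ_4230 with 4, 4 and 3 reads against 1, 1 and 1, beside a dominant rival, ssc_circ_4231, with 51, 52 and 45 reads against 228, 81 and 119 (limma, adjusted p = 0.189). SUPT20H, a subunit of the SAGA complex, gave ssc_circ_2967, with no read in the wild boars and 4, 2 and 7 reads in domestic pig (limma, adjusted p = 0.334). In each of these 4 the groups' shares did not overlap. They were picked by p from the same shares, so this adds no support. Of all circRNAs tested, wild boar lay above without overlap for 5.98% and below for 6.02%.

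**Figure D5:**
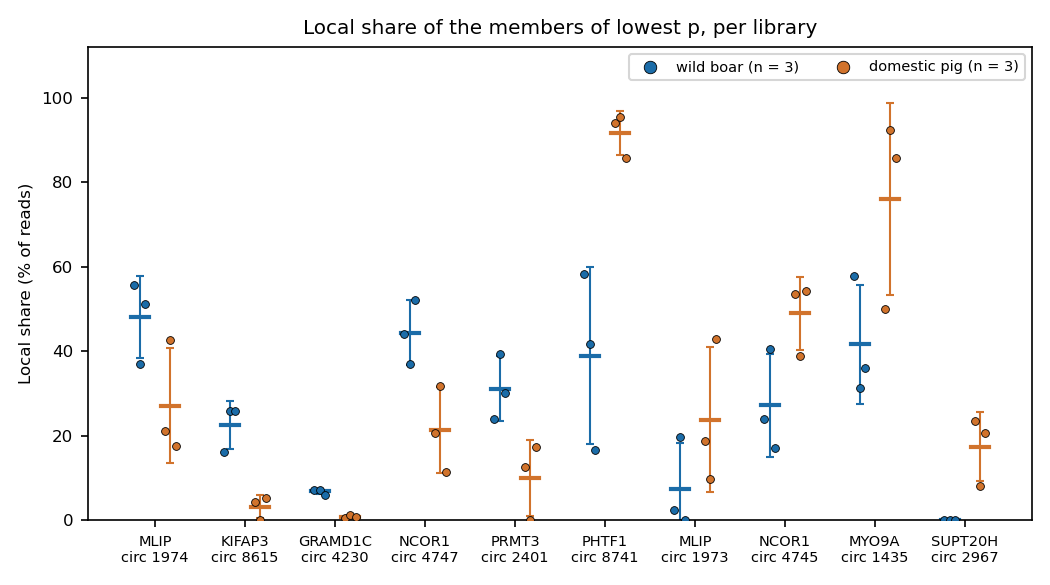
Local share in percent of reads (vertical axis) of the 5 members of lowest p in each direction (horizontal axis: higher in wild boar first, then lower), per library, with means (thick bars) and SD (thin bars), n = 3 per breed. PHTF1, the member that passed, lies at 16.7% to 58.3% in wild boar (blue) and 85.7% to 95.5% in domestic pig (orange).

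A full switch, dominance in all 3 libraries of a breed and in none of the other, was seen for 3 of the 834 members. TARBP1, an RNA methyltransferase, gave the switch towards wild boar, ssc_circ_5546, with 8, 13 and 5 reads in the wild boars and 3, 1 and 1 in domestic pig (local share 38.5% to 59.1% against 5.88% to 25%; limma, adjusted p = 0.304). In domestic pig 1 it was level with 2 rivals at 3 reads each, so no rival was ahead of it there. SMARCC1, a core subunit of BAF chromatin remodellers, gave ssc_circ_3675 towards domestic pig, with 6, 6 and 1 reads against 13, 11 and 18, while the leader in wild boar, ssc_circ_3679, had 9, 11 and 6 against 12, 7 and 8 (adjusted p = 0.637). EED, a subunit of Polycomb repressive complex 2, gave ssc_circ_7808, with 6, 4 and 6 reads against 25, 13 and 22 (adjusted p = 0.800). Its rival ssc_circ_7807 had 8, 14 and 6 against 17, 5 and 15, and wild boar 3 was a tie. In none of the 3 did the change of share pass the test. With 1 library left out, fewer libraries had to concur and 5 to 15 members met the definition. Lead in most libraries of a breed, a looser measure, was held in both breeds by 202 members, in wild boar alone by 30 and in domestic pig alone by 38.

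Abundance was lower in wild boar for most members, as for most circRNAs. The TPM of the members summed to 515 ± 23.3 in the wild boars and 786 ± 71.3 in domestic pig (SD, n = 3). In limma on log2(TPM + 0.045), a scale that understates the change of low values, 2 of 1786 members tested were lower at an adjusted p under 0.05 and 0 higher, against 0.134% of all 9709 circRNAs lower. At an unadjusted p under 0.05, 265 members were lower (14.8%) and 20 higher (1.12%), against 12.8% and 1.67% of all circRNAs tested. The breeds did not overlap for 408 members with wild boar below (22.8%, against 18.2% of all) and for 35 with wild boar above (1.96%, against 2.46% of all). The members' median log2 change was -0.52 and that of all circRNAs tested -0.45. Rescaling each library by its median ratio brought these medians to -0.13 and -0.10, and then 0 members passed in limma, with 142 at an unadjusted p under 0.05. On the deposited scale, 5 and 4 members passed with domestic pig 2 or 3 left out, and 0 with any 1 of the other libraries left out. In bulk tissue, fewer cells of a type and less RNA per cell cannot be told apart, and the red blood cell markers given above were higher in all 3 wild boars, while the ranges of the liver genes overlapped. Their part in these levels was not tested.

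DENND1B, an exchange factor for RAB35, gave 1 of the 2 members that passed. Its ssc_circ_3284 was at 3.21 ± 0.696 TPM in the wild boars and 8.42 ± 1.64 TPM in domestic pig (SD, n = 3), on reads of 41, 102 and 48 against 151, 118 and 182. The log2 level fell by 1.38 in wild boar (SE 0.26; limma, adjusted p = 0.0475). The host mRNA stood at 9.66 ± 1.36 and 17.7 ± 3.97 TPM. The other was ssc_circ_1978 of MLIP, whose log2 level fell by 1.58 (SE 0.29; limma, adjusted p = 0.0475), with the reads given above. After median-ratio rescaling the log2 change was -0.79 for DENND1B (adjusted p = 0.323) and -0.99 for MLIP (adjusted p = 0.319). Without wild boar 1, 2, 3 or domestic pig 1 it was 0.0756 to 0.115 for DENND1B and 0.0730 to 0.136 for MLIP, and without domestic pig 3 it was 0.0786 for DENND1B. Of the members that missed, ADGRB3, an adhesion receptor of synapses, gave ssc_circ_862 with 20, 32 and 13 reads against 53, 53 and 69 (limma, adjusted p = 0.0536).

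The members of lowest p that were higher in wild boar all missed the threshold. ERBIN, a scaffold protein that binds ERBB2, gave ssc_circ_11142 with 5, 3 and 4 reads in the wild boars and 0 in each domestic pig (limma, adjusted p = 0.156). NDFIP2, an adaptor of NEDD4-type ubiquitin ligases, gave ssc_circ_3097 with 7, 2 and 5 reads against 3, 0 and 0 (limma, adjusted p = 0.192), and PRMT3 gave ssc_circ_2401, above (adjusted p = 0.209).

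By host function, 0 members in 9 gene lists passed either test in limma. At an unadjusted p under 0.05 stood 10 of their 124 members tested for local share and 37 of 257 tested for level, against 7.02% and 14.5% of all circRNAs tested. Of all 834 assessed members, 16.8% led in all 6 libraries and 56.5% in none. The counts of leaders per list are small, were not tested and are a description. Genes of the presynaptic active zone hosted 36 members in 9 genes, of which 23 were assessed, 4 led in all 6 libraries and 14 in none. Their local shares had a median log2 change of 0.12 between -1.41 and 0.86, beside 0.01 for all circRNAs tested. Regulators of small GTPases and vesicle traffic hosted 39 members in 14 genes, and 7 of the 19 assessed led in all 6 libraries, such as ssc_circ_6544 of DOCK4 at 75.9% to 83.9% of local reads. Ubiquitin ligases and deubiquitinases hosted 45 members in 9 genes, and 0 of the 18 assessed led throughout. Their most abundant members were ssc_circ_558 of USP24 and ssc_circ_5006 of UBR3, the latter with 4 to 9 reads per library.

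Chromatin and transcription regulators hosted 57 members in 14 genes, the most of any list, and 2 of 23 assessed led in all 6 libraries. One of their most abundant members, ssc_circ_2198 of CHD2, had 38, 52 and 26 reads in the wild boars and 59, 18 and 42 in domestic pig, and a share of 43.3% to 72.0%. Postsynaptic genes and receptors hosted 14 members in 4 genes, with 1 of 8 leading throughout. HOMER1, a postsynaptic scaffold, gave ssc_circ_2568 with 39, 76 and 27 reads against 59, 28 and 150, the last from domestic pig 3, and DLG1 gave ssc_circ_4138 at 39.2% to 61.5% of local reads. Ion channels hosted 18 members in 5 genes but only 3 were deep enough to assess, among them ssc_circ_3127 of NALCN, a sodium leak channel, at 41.7% to 73.1%.

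Genes of RNA processing hosted 21 members in 8 genes, with 1 of 10 leading throughout, and kinases hosted 28 in 10 genes, with 2 of 14. PTBP3, a splicing repressor, gave ssc_circ_1818 at 48.7% to 62.1%, and STAU2, a double-stranded RNA binding protein, gave ssc_circ_8512 at 30.1% to 47.1%. PRKCB, a protein kinase C, gave ssc_circ_7177 with 68, 102 and 61 reads against 63, 25 and 72 and a share of 52.1% to 77.3%. Cytoskeleton and motor genes hosted 14 members in 6 genes, with 2 of 7 leading throughout, one of them ssc_circ_1430 of MYO9A at 79.5% to 96.4%. The same gene thus held a member that led throughout and ssc_circ_1435, whose lead changed.

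Factors known to act on back-splicing or on circRNA decay were read from the protein-coding table. Of 17 such genes 15 were tested with limma, and on deposited TPM 0 passed (1.60% of the 11752 genes tested did, 0.136% higher in wild boar and 1.46% lower). At an unadjusted p under 0.05, MBNL1, a splicing regulator that binds its own circRNA, and XRN2, an exonuclease, had log2 changes of -0.84 and -0.89 (adjusted p = 0.275 and 0.245). After median-ratio rescaling, where 11.6% of all genes were higher and 7.91% lower, the list had 2 higher and 1 lower. The RNA editing enzyme ADARB1 rose by 0.56 (adjusted p = 0.0202), the neuronal splicing factor NOVA2 by 0.79 (adjusted p = 0.0285), and XRN2 fell by 0.36 (adjusted p = 0.0416). QKI, which promotes the formation of many circRNAs, stood at 136 ± 48.6 TPM in the wild boars and 232 ± 54.3 TPM in domestic pig (SD, n = 3) and did not pass on either scale.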

How the data were processed

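RNA-seq of 3 wild boar and 3 domestic pig libraries was used. Per the labels' protocols, total RNA was depleted of ribosomal RNA and made into stranded libraries. Tools listed, with no role, are STAR 2.6.0c and BWA 0.7.17, per the submitters' processing notes. For the circRNA caller, build and annotation, nothing is stated: not given in the sources used here. CircRNA and protein-coding tables were deposited in TPM by the authors, and 0 per-sample columns were left unused. The members, lists and tests were chosen with earlier results of these data known.

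Reads were recovered from the circRNA TPM as the smallest whole numbers that reach 3 reads in some library, with lengths set by circRNAs whose length equals their span. A factor common to all libraries cannot be seen, and for 76 members the reads were raised to reach this solution. The recovery and both fits were tested on simulated data. Reads came back exactly for 98.9% of 2654 simulated circRNAs. The share fit called 21.3%, 74.2% and 95.7% of simulated log2 changes of 1, 2 and 3. For the level fit these were 8.16%, 38.1% and 73.7%, and 88.5% at 4. Small changes would thus mostly be missed. False calls numbered 3 of 1787 unchanged circRNAs for share and 11 of 10204 for level. In the deposited data all 11375 circRNAs came out whole (largest relative deviation 2.30e-07). Because the unit is TPM, no count model was used. Table starts were raised by 1 to count from 1. Hosts were assigned by position with Sscrofa11.1 RefSeq gene names: 99.3% of circRNAs fell within a gene (47.2% once moved by 1000000 bases). Of the members, 11 had no host and 4 had several. In the gene table, 14821 of 21280 identifiers matched a symbol.

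Shares and levels were fitted with limma 3.58.1 in R 4.3.3 over the whole table, two-sided, with a variance trend and Benjamini-Hochberg adjustment. Share fits needed 10 local reads in every library and reads of the circRNA and of its rivals in at least 3 libraries. Level fits needed a value above 0 in at least 3 libraries, and gene fits on log2(TPM + 1) a TPM of at least 1 in at least 3. Members were named by rule: the 10 of highest TPM, the 5 fullest sites, those of lowest p per direction, switches, the 3 highest and 3 most even shares, 2 per host list and those nearest the span limits. The rule for even shares asked for 1 rival; members have at least 2, so 2 were used. One item that the rule named is not reported here. Alternatives changed the read minimum, prior, pseudocount, filter, scaling, variance trend, sharing end, method (limma's diffSplice), replicate block and library set.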

Additional observations from a re-analysis of the deposited data

How the results depend on the processing

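Counts of calls moved with nearly every setting, and each is small. Members whose local share passed, 1 as reported, numbered 0 with a minimum of 20 local reads, 2 with a prior of 1 read, 0 on shares of TPM, 3 and 0 with the acceptor or donor end alone, 0 without a variance trend, 2 with diffSplice and 0 to 3 when 1 library was left out. Over all circRNAs, 1 as reported, the counts were 2 with a minimum of 5 reads, 0 with 20, 3 with a prior of 1, 0 on TPM, 4 and 0 by end, 0 without the trend, 11 with diffSplice and 0 to 6 with 1 library left out. Members whose level passed, 2 of 1786 as reported, numbered 6 and 0 with a pseudocount of 0.1 and 0.01. They were 0 of 1939 without a filter, and 43 of 974 with only circRNAs above 0 in all 6 libraries fitted. After median-ratio or quantile scaling 0 passed, and 0 to 5 did with 1 library left out. Over all circRNAs, 13 of 9709 as reported, these counts were 26, 0, 6 of 11375, 154 of 3976, 2, 2 and 1 to 25. Switches, 3 as reported, numbered 6 with a minimum of 5 local reads, 0 with 20 and 5 to 15 with 1 library left out. The causes were not tested.

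The percentage of members dominant in every library was 14.3% to 21.1% and in none 54.2% to 59.4% under the read minimums of 5 and 20, on TPM and with 1 library left out. The difference in member read share, -0.380 percentage points as reported, and that in same-isoform probability, 0.00398, kept their direction under their alternatives but not their size. The first was -0.635 to -0.177 with 1 library left out (lowest without wild boar 3, highest without wild boar 2), and the second 0.000214 (without domestic pig 3) to 0.00625. Alternatives for single circRNAs were run for the 10 shares and 6 levels of lowest p, and none of these reversed. With diffSplice, PHTF1 no longer passed and the log2 change of ssc_circ_1435 of MYO9A shrank to -0.02.

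Equal replicate numbers were taken to mark separate animals and did not pair the libraries. Correlations of their deviations were 0.0191, 0.0222 and 0.0222 for local share and 0.0138, 0.0567 and 0.00525 for level. In each, 2 of 3 numbers correlated best with themselves. With the replicate number as a block, 3 members passed for local share and 5 for level, and 6 and 21 circRNAs in all.

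Local reads under 10 in a library kept 1105 members out of any statement on dominance.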
